A study of Mus musculus with 8 samples.

Results

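The RNA levels of 9 nuclear receptors of the hepatocyte, the main cell of the liver, were examined in livers of mice that carry an N-terminal deletion of Lbr and of matched WT mice. Lbr encodes the Lamin B receptor, a protein of the inner nuclear membrane with sterol reductase activity. The 9 genes were taken by symbol as Hnf4a, Nr1i2, Nr1i3, Ppara, Nr1h3, Rxra, Esr1, Esrrg and Nr3c1, and each matched 1 of the 49671 gene IDs of the counts table. The data are read counts per gene from 8 liver RNA-seq libraries, 2 each from WT males, NT-KO males, WT females and NT-KO females. The mice are labelled C57BL/6, and the methods give a backcross of the founder to C57BL/6N. They were sampled after weaning, with no treatment named. NT-KO mice were homozygous for a CRISPR deletion spanning the start codon of Lbr, described by the study as leaving a truncated protein that keeps the sterol reductase domains. The deletion is present in every cell, so no group separates hepatocytes from other liver cells. The sources do not state that each library is a separate mouse, so the p-values measure the spread between these libraries.

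Nuclear receptors are transcription factors that carry a DNA-binding domain and a ligand-binding domain, and many switch genes on or off when a small lipophilic molecule such as a steroid, a fatty acid, an oxysterol or a drug binds. Several bind DNA as a pair with the retinoid X receptor, whereas steroid receptors wait in a complex with heat shock proteins and pair with themselves. In liver they set bile acid, lipid, glucose and drug metabolism, and the output of several differs between the sexes.

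Library totals lay between 45020377 and 64396291 counts, so 1 count was worth 0.0147 to 0.0235 CPM, the count scaled to the TMM-adjusted library total. All 9 receptors were among the 13117 genes that reached 1 CPM in 2 or more libraries. Xist and 4 genes of the Y chromosome (Uty, Kdm5d, Ddx3y and Eif2s3y) matched the labelled sex of every library. Lbr was at 6.52 to 8.04 CPM in the 4 WT libraries and at 12.8 to 14.0 CPM in the 4 NT-KO libraries, and gene counts do not show the deleted bases themselves. All 5 hepatocyte markers (Alb, Apoa1, Apob, Ttr and Cps1) had counts in all 8 libraries and summed to 71231 to 108670 CPM, while adipocyte and exocrine pancreas markers summed to at most 0.347 CPM. Male WT replicate 1 stood apart in erythroid markers (784 CPM against 157 to 350 CPM in the others), and male NT-KO replicate 2 in B lymphocyte markers (50.3 CPM against 3.50 to 19.9 CPM). The groups also differed in their circadian clock genes. The log2 level of 9 clock output genes less that of Arntl, a core clock gene, was 3.28 and 3.66 in WT males, 5.09 and 5.41 in NT-KO males, 6.85 and 6.77 in WT females, and 5.28 and 6.61 in NT-KO females. The male WT libraries were the lowest and the female WT libraries the highest. Both male NT-KO libraries lay above male WT, both female NT-KO libraries lay below female WT, and female NT-KO replicate 1 lay within the male NT-KO range. The part of the clock in the results that follow was not tested. In bulk liver, fewer cells of a type and less RNA per cell cannot be told apart.

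On a scale per exon length (RPKM, CPM per kilobase of exon), Hnf4a was the highest of the 9 receptors and Esrrg the lowest. Mean RPKM over the 8 libraries was 92.3 ± 13.6 (SD, n = 8) for Hnf4a, 51.0 ± 5.38 for Rxra, 37.4 ± 2.87 for Nr1h3 and 34.4 ± 6.68 for Nr1i2. It was 25.0 ± 10.9 for Nr1i3, 10.8 ± 2.85 for Ppara, 8.82 ± 2.12 for Nr3c1, 3.05 ± 0.678 for Esr1 and 0.419 ± 0.346 for Esrrg. These SDs run across all 4 groups. In this order the ranges of Nr1h3 and Nr1i2, of Nr1i2 and Nr1i3, of Nr1i3 and Ppara, and of Ppara and Nr3c1 over the 8 libraries overlapped, and those of the other neighbours did not. Among 49 nuclear receptors of the mouse, the 9 held 51.0% of the summed mean RPKM, and their ranks were 1, 3, 5, 7, 8, 10, 12, 20 and 34. The most abundant of the other receptors was Nr1h4, the bile acid receptor, at 73.4 RPKM. Of the 40 other receptors 27 passed the filter on low counts, and the plot of receptor levels shows all but 1 of them beside the 9.

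**Figure D1:**
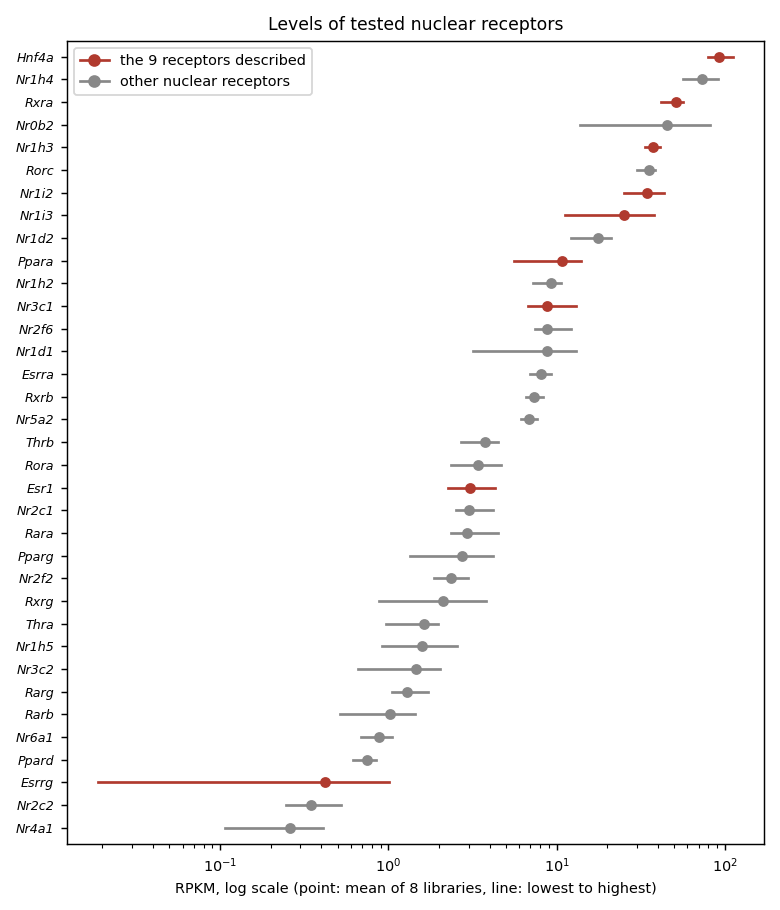
Mean RPKM of all but 1 of the 36 nuclear receptors that passed the filter on low counts, on a log axis; each point is the mean of the 8 libraries and each line runs from the lowest to the highest library. Hnf4a lies at the top with 92.3 RPKM and Esrrg near the bottom with 0.419 RPKM and the widest range.

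Esrrg (ENSMUSG00000026610, GRCm38 chr1:187608791-188214885, plus strand, protein-coding, exon length 6208 bases) was the only one of the 9 to pass the quasi-likelihood test, and it passed between the sexes. It encodes estrogen-related receptor gamma, an orphan receptor that is active without a known natural ligand and is known for control of gluconeogenic and mitochondrial genes. The gene has 4 annotated start windows in the RefSeq promoter table (GRCm38.p6), each from 250 bases before to 50 bases after a start. The window at the most upstream start, chr1:187608756-187609055, is shown because Esrrg carries the largest difference, and the gene-level counts do not tell which start was used.

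Esrrg: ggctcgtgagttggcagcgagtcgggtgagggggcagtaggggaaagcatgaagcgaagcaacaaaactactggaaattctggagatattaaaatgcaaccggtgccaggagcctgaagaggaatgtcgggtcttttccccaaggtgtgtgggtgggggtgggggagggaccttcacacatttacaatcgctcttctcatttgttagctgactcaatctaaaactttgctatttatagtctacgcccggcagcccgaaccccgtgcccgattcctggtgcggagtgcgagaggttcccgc

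In male WT livers Esrrg had 0.213 and 0.118 CPM (12 and 5 counts). The male NT-KO libraries held 1.26 and 2.02 CPM (62 and 106 counts). Female WT libraries held 3.85 and 2.64 CPM, and female NT-KO libraries 4.40 and 6.29 CPM. All 4 female libraries lay above all 4 male libraries, and in each sex both NT-KO libraries lay above both WT libraries. Male WT was the lowest group, with counts above the floor of 3 counts in both libraries.

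Over both genotypes Esrrg was higher in females by a log2 fold change of 2.97 ± 0.29 (SE; 95% interval 2.32 to 3.63; edgeR quasi-likelihood test, FDR = 0.000642 over 13117 genes). FDR is the Benjamini-Hochberg adjusted p, and a gene with an FDR of at most 0.05 is said to have passed. This was 1 of 9 receptors, beside 7.84% of all tested genes in this comparison (540 higher and 488 lower, or 1171 and 347 on library size alone). Within WT the log2 fold change was 4.24 ± 0.44 (FDR = 0.00193), where 6.44% of all genes passed (436 higher and 409 lower, or 1016 and 304 on library size alone). In NT-KO it was 1.70 ± 0.35 (FDR = 0.0631), which did not pass, and 1.86% of all genes did. Under the alternatives, which included leaving out each library in turn, the difference between the sexes passed in 16 of 16 fits over both genotypes and in 16 of 16 within WT.

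Between genotypes, Esrrg was 3.26 ± 0.45 higher on the log2 scale in NT-KO males than in WT males (95% interval 2.24 to 4.29; unadjusted p = 7.47e-05, FDR = 0.098), a fitted 9.59-fold difference that did not pass. Its log2 difference in females was 0.73 ± 0.34 (95% interval -0.06 to 1.51, FDR = 1). The difference between these 2 effects was -2.54 ± 0.56 (unadjusted p = 0.0019, FDR = 0.573). Only 2 of 13117 genes (0.0152%) passed in males (1 higher and 1 lower, or 3 and 1 on library size alone), 1 (0.00762%) in females and 2 (0.0152%) in the test of the difference between the sexes, and none of the 9 receptors was among them. Over both sexes 2 genes (0.0152%) passed, and Esrrg had a log2 fold change of 1.99 ± 0.28 (FDR = 0.188). With edgeR's likelihood ratio test, Esrrg passed in males (FDR = 1.51e-07), over both sexes (FDR = 1.28e-06) and for the difference between the sexes (FDR = 0.0267). DESeq2 gave FDR = 4.27e-07 in males, and over 17 alternatives the FDR in males ran from 3.94e-13 to 0.278 and passed in 3. The same male WT libraries serve both comparisons. Arntl, at 4.19 and 4.09 CPM in WT males, 1.92 and 1.34 CPM in NT-KO males and 0.545 to 1.52 CPM in the female libraries, was highest in the group in which Esrrg was lowest, and its part was not tested. Without male WT replicate 1 the log2 difference in males was 3.77, and without male NT-KO replicate 2, the library with more B lymphocyte RNA, it was 2.88.

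**Figure D2:**
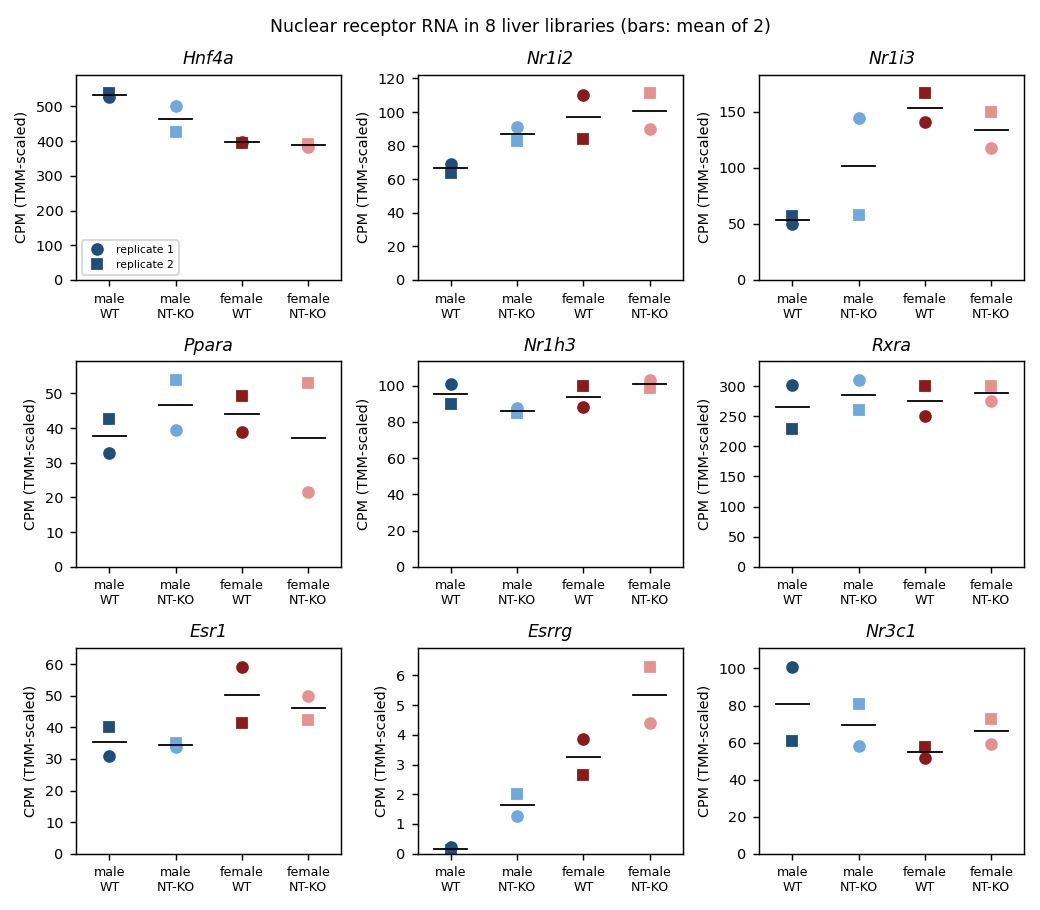
CPM of each of the 9 receptors in the 8 libraries, with the 4 groups on the x axis, a circle for replicate 1, a square for replicate 2 and a bar for the mean of 2; each y axis starts at 0. Only for Hnf4a, Esr1 and Esrrg do the 4 male and the 4 female libraries separate, and only for Hnf4a and Esrrg do WT and NT-KO separate in the same direction in both sexes.

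Across the 9 receptors, 2 had an unadjusted p under 0.05 in NT-KO against WT males (Nr1i3 and Esrrg, both higher), where 11.5% of all genes did. In females 0 of 9 did (edgeR quasi-likelihood test), beside 1.55% of all genes, and the likelihood ratio test and DESeq2 also passed 0 of 9 there. For the difference between the sexes 1 of 9 had an unadjusted p under 0.05 (Esrrg), beside 7.20% of all genes. Between the sexes over both genotypes 5 of 9 did, 4 higher in females and 1 lower, beside 26.9% of all genes. The libraries of the 2 genotypes did not overlap for 5 of 9 receptors in males (Nr1i2, Nr1i3 and Esrrg above, Hnf4a and Nr1h3 below), beside 38.9% of all genes. In females they did not overlap for 3 of 9 (Esrrg and Nr3c1 above, Hnf4a below), beside 26.4%. The sexes did not overlap for 3 of 9 (Esr1 and Esrrg above in females, Hnf4a below), beside 16.0% of all genes. On library size alone Nr1i2 also lay above in females without overlap, and the share of all genes was not computed on that scale. The median log2 fold change of the 9 was 0.10 in males, 0.05 in females and 0.11 between the sexes, against 0.01, 0.00 and -0.01 over all tested genes.

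**Figure D3:**
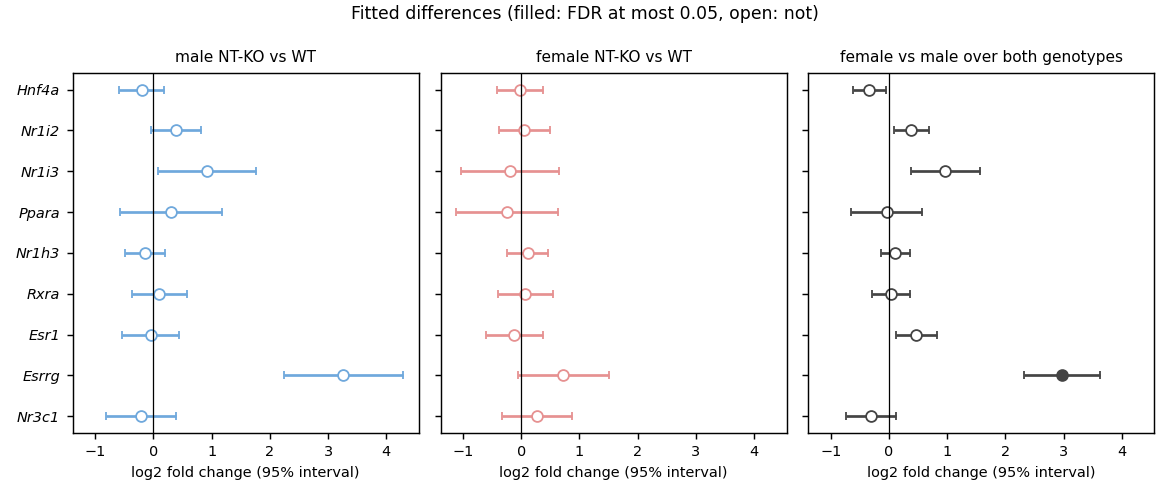
Fitted log2 fold change of each receptor with its 95% interval in NT-KO against WT males, female NT-KO against WT, and female against male over both genotypes; filled points have an FDR of at most 0.05. Esrrg in the comparison of the sexes, at 2.97, is the only filled point, and Esrrg in males, at 3.26, is open.

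Hnf4a (ENSMUSG00000017950, chr2:163506808-163572910, plus strand, exon length 4828 bases) encodes hepatocyte nuclear factor 4 alpha, which binds DNA as a pair with itself and holds many hepatocyte genes active. It had 529 and 538 CPM in WT males, 501 and 426 CPM in NT-KO males, 399 and 395 CPM in WT females, and 384 and 393 CPM in NT-KO females. Every male library lay above every female library, and in each sex both NT-KO libraries lay below both WT libraries. The log2 fold change of females against males was -0.34 ± 0.12 (95% interval -0.62 to -0.06, FDR = 0.126), which did not pass. NT-KO differed from WT by -0.20 ± 0.17 in males (FDR = 0.695) and by -0.03 ± 0.17 in females (FDR = 1), and both 95% intervals held 0. Without TMM, on library size alone, the sexes differed by -0.20, and the libraries of the sexes still did not overlap.

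Its list of 19 target genes, of which 18 were matched and tested, includes apolipoproteins, clotting factors and enzymes of gluconeogenesis. In the comparison of the sexes 2 of 18 rose in females, beside the 7.84% of all genes that passed, Apoa4 with a log2 fold change of 1.28 ± 0.22 (FDR = 0.0112) and Apoc3 with 0.66 ± 0.16 (FDR = 0.0401), and 0 fell. Apoa4 and Apoc3 encode apolipoproteins of triglyceride-rich lipoproteins. Apoa4 was at 53.9 to 132 CPM in the male libraries and at 143 to 300.0 CPM in the female libraries, with no overlap. The Apoc3 call was lost in 8 of 16 alternatives, with filterByExpr and with each library left out except male NT-KO replicate 1. The median log2 fold change of the list was -0.14 (8 genes higher, 10 lower). In males 0 of 18 passed between genotypes, and the likelihood ratio test and DESeq2 also passed 0. An unadjusted p under 0.05 was found for 2, beside 11.5% of all genes. They were Apoa4 at 0.91 ± 0.30 and Dio1, a thyroid hormone deiodinase, at -0.75 ± 0.32. The list's median in males was -0.06, and 0.01 on library size alone.

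Nr1i2 and Nr1i3 encode the xenobiotic sensors PXR and CAR, which pair with the retinoid X receptor and switch on drug-metabolizing enzymes and transporters. Nr1i2 (ENSMUSG00000022809, chr16:38248323-38294824, minus strand, exon length 2553 bases) had 69.0 and 64.0 CPM in WT males, 90.9 and 83.0 CPM in NT-KO males, 110.4 and 84.0 CPM in WT females, and 90.1 and 111 CPM in NT-KO females. Male WT was the lowest group, below both male NT-KO libraries, and the other groups overlapped. Nr1i2 was higher in females by 0.38 ± 0.13 on the log2 scale (95% interval 0.08 to 0.69, FDR = 0.115), and on library size alone by 0.52 (FDR = 0.0398). Male NT-KO differed from male WT by 0.39 ± 0.19 (FDR = 0.477) and female NT-KO from female WT by 0.05 ± 0.19 (FDR = 1).

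Nr1i3 (ENSMUSG00000005677, chr1:171213970-171220701, plus strand, exon length 4414 bases) shares 74.9% of its exon bases with Tomm40l, which lies on the other strand. The library kit is not stated to mark strand, so reads of Nr1i3 and Tomm40l may not be told apart there, and its counts and length are uncertain. Its RefSeq start window, chr1:171213720-171214019 on the plus strand of GRCm38.p6, is shown with its 1 match to the E-box CACGTG, the site class bound by clock factors, in capitals. The letters are their own reverse complement, and 7.15% of 32851 RefSeq windows hold them. The match is a description and not a binding site.

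Nr1i3: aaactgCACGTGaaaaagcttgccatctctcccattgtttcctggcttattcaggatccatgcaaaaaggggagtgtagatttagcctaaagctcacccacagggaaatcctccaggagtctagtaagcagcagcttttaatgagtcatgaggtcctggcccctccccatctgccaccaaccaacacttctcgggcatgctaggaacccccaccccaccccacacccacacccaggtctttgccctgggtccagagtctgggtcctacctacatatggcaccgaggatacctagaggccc

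Nr1i3 had 49.7 and 57.0 CPM in WT males, 144 and 58.3 CPM in NT-KO males, 141 and 166 CPM in WT females, and 117 and 149.98 CPM in NT-KO females. Male NT-KO replicate 1 lay within the female range, and the other 3 male libraries lay below every female library. Tomm40l had 8.63 and 13.3 CPM in WT males, 21.4 and 13.4 CPM in NT-KO males and 18.5 to 24.4 CPM in the female libraries, so it too was highest among males in male NT-KO replicate 1. The log2 fold change of Nr1i3 in females against males was 0.97 ± 0.26 (95% interval 0.37 to 1.57, FDR = 0.0602) over both genotypes and 1.53 ± 0.37 (FDR = 0.0512) in WT, and neither passed. Without male NT-KO replicate 1 the former was 1.36 (FDR = 0.00381), and without male NT-KO replicate 2 it was 0.71 (FDR = 0.0379). The log2 fold change in NT-KO against WT males, 0.92 ± 0.37 (unadjusted p = 0.0367, FDR = 0.399), rested on 1 library: it was 0.13 without male NT-KO replicate 1 and 1.43 without replicate 2. In females it was -0.20 ± 0.37 (FDR = 1).

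Of 16 listed targets of PXR and CAR 15 were tested, and 3 rose in females while 0 fell, beside 7.84% of all genes. Cyp2b10, a cytochrome P450 and the classical CAR target, had a log2 fold change of 2.94 ± 0.50 (FDR = 0.0116). Abcb1a, a drug efflux pump, had 2.56 ± 0.25 (FDR = 0.000689), and Slco1a4, an organic anion uptake carrier, had 1.05 ± 0.25 (FDR = 0.0418). Cyp2b10 was at 2.70 and 0.329 CPM in WT males, 2.43 and 2.61 CPM in NT-KO males, 8.99 and 18.9 CPM in WT females, and 17.3 and 15.5 CPM in NT-KO females, with every female library above every male library. Cyp2b10 and Abcb1a have close paralogs between which reads could be split. The Slco1a4 call was lost in 6 of 16 alternatives, without male WT replicate 2, male NT-KO replicate 2 or any 1 of the female libraries. The list's median was 0.35 (10 genes higher, 5 lower). In males 0 of 15 passed between genotypes by any of the 3 tools, and 3 had an unadjusted p under 0.05, beside 11.5% of all genes. These were led by the efflux pumps Abcc3 at 1.04 ± 0.38 and Abcb1a at 0.86 ± 0.35. The list's median of 0.40 in males was 0.14 without male NT-KO replicate 2. In females 0 of 15 passed by any of the 3 tools, 0 had an unadjusted p under 0.05, and the median was 0.07.

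Ppara (ENSMUSG00000022383, chr15:85734983-85802819, plus strand, exon length 3836 bases) encodes the fatty acid sensor PPAR alpha, which switches on fatty acid oxidation and ketone body synthesis in the fasted liver. It had 32.7 and 42.6 CPM in WT males, 39.4 and 53.9 CPM in NT-KO males, 39.0 and 49.3 CPM in WT females, and 21.5 and 53.0 CPM in NT-KO females. The 2 female NT-KO libraries held the lowest and the second highest value of the 8, and all groups overlapped. The log2 difference was 0.31 ± 0.38 in males (FDR = 0.814), -0.24 ± 0.38 in females (FDR = 1) and -0.04 ± 0.27 between the sexes (95% interval -0.66 to 0.57, FDR = 0.935). Its sign between the sexes turned to 0.08 on library size alone.

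The 20 listed targets of PPAR alpha, by contrast with the receptor's own RNA, held 7 genes that rose in females and 0 that fell, beside 7.84% of all genes. The leading ones were Cyp4a14 with a log2 fold change of 7.23 ± 0.47 (FDR = 8.74e-05) and Cyp4a10 with 5.57 ± 0.37 (FDR = 8.83e-05), 2 fatty acid omega-hydroxylases. Vnn1, a pantetheinase, had 3.06 ± 0.28 (FDR = 0.000472), and Acot1, an acyl-CoA thioesterase, had 1.86 ± 0.33 (FDR = 0.0128). Cyp4a14 was at 0.497 and 0.776 CPM in WT males, 5.59 and 1.47 CPM in NT-KO males, 322 and 327 CPM in WT females, and 115 and 192 CPM in NT-KO females. Cyp4a10 was at 4.15 and 3.20 CPM in WT males, 21.8 and 7.14 CPM in NT-KO males, 437 and 387 CPM in WT females, and 312 and 270.2 CPM in NT-KO females. For both genes every female library was above every male library, male NT-KO was above male WT, and female NT-KO was below female WT. Cyp4a10, Cyp4a14 and Acot1 belong to families of near-identical genes, so reads may be shared with relatives. Of the list, 18 genes were higher and 2 lower in females, with a median of 0.49 against -0.01 over all genes. All 4 named genes passed in 16 of 16 alternatives. The calls of the other PPAR alpha targets that passed were less firm, and each held in only 8 to 14 of the 16.

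Between genotypes 0 of the 20 PPAR alpha targets passed in either sex (edgeR quasi-likelihood test). In males 6 had an unadjusted p under 0.05, all higher in NT-KO, beside 11.5% of all genes, led by Cyp4a10 at 1.97 ± 0.45 (unadjusted p = 0.00233, FDR = 0.21) and Cyp4a14 at 2.48 ± 0.61 (unadjusted p = 0.00339, FDR = 0.229). The likelihood ratio test passed 2 of them and DESeq2 3. In females 0 had an unadjusted p under 0.05 and 0 passed by the other tools, and the values were -1.08 ± 0.50 for Cyp4a14 and -0.55 ± 0.30 for Angptl4. The difference between the 2 effects was -3.56 ± 0.79 for Cyp4a14 and -2.47 ± 0.62 for Cyp4a10 (FDR = 0.573 for each), and it passed for both with the likelihood ratio test and with DESeq2. The list's median was 0.19 in males and -0.06 in females.

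Nr1h3 (ENSMUSG00000002108, chr2:91184061-91202834, minus strand, exon length 2515 bases) encodes the oxysterol sensor LXR alpha, which raises sterol export and fatty acid synthesis. It had 101 and 89.7 CPM in WT males, 87.6 and 84.9 CPM in NT-KO males, 88.0 and 99.5 CPM in WT females, and 103 and 98.8 CPM in NT-KO females. It varied least of the 9, by 1.21-fold from the lowest to the highest library. The log2 difference was -0.15 ± 0.15 in males (95% interval -0.49 to 0.20, FDR = 0.762), 0.11 ± 0.15 in females (FDR = 1) and 0.11 ± 0.11 between the sexes (95% interval -0.14 to 0.35, FDR = 0.567). Both male NT-KO libraries lay below both male WT libraries with TMM, and they overlapped on library size alone.

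Of its 14 listed targets 12 were higher in NT-KO males than in WT males, with a median log2 fold change of 0.69. None passed, 7 had an unadjusted p under 0.05, all higher, beside 11.5% of all genes, and the likelihood ratio test and DESeq2 passed 0. The smallest p-values belonged to Abcg1, a sterol exporter, at 0.60 ± 0.20 (FDR = 0.336) and Cyp7a1, the rate-limiting enzyme of bile acid synthesis, at 1.11 ± 0.38 (FDR = 0.344). The median was 0.32 without male NT-KO replicate 2, with 9 genes higher and 5 lower, and 0.79 without male WT replicate 1. In females the median was -0.02 with 5 genes higher and 9 lower, 0 had an unadjusted p under 0.05, and 0 passed by any of the 3 tools. Between the sexes 1 of the 14 rose in females and 1 fell, beside 7.84% of all genes. Pltp, the phospholipid transfer protein, rose by 1.96 ± 0.35 (FDR = 0.0146), and Abca1, a cholesterol exporter, fell by 0.80 ± 0.17 (FDR = 0.0286). Within NT-KO neither passed. Pltp differed there by 1.48 ± 0.49 (quasi-likelihood test, FDR = 0.301) and Abca1 by -0.48 ± 0.24 (FDR = 0.596). Abca1 was at 105 to 196 CPM in males and 77.3 to 105 CPM in females, so the sexes met at the edge of their ranges. Its call was lost in 6 of 16 alternatives, without any 1 of the WT or female NT-KO libraries. The Pltp call was lost in 2, without male WT replicate 2 or female NT-KO replicate 1.

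Rxra (ENSMUSG00000015846, chr2:27676440-27762957, plus strand, exon length 5462 bases) encodes retinoid X receptor alpha, the partner that PXR, CAR, PPAR alpha and LXR alpha share. It had 303 and 229 CPM in WT males, 310.1 and 261 CPM in NT-KO males, 250.3 and 299.5 CPM in WT females, and 275 and 301 CPM in NT-KO females. All groups overlapped. The log2 difference was 0.10 ± 0.20 in males (95% interval -0.37 to 0.57, FDR = 0.894), 0.07 ± 0.20 in females (95% interval -0.40 to 0.54, FDR = 1) and 0.04 ± 0.14 between the sexes (95% interval -0.30 to 0.37, FDR = 0.905), and all 3 changed sign when 1 library was left out. Of the 8 members whose RefSeq start windows were searched (all but Nr3c1), only Rxra held the receptor half-site AGGTCA. Its window chr2:27709042-27709341 held 2 matches over both strands, and 16.3% of all windows hold at least 1.

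Esr1 (ENSMUSG00000019768, chr10:4611593-5005614, plus strand, exon length 13661 bases) encodes estrogen receptor alpha. Its second RefSeq window, chr10:4709908-4710207 on the plus strand, is shown with its 1 match to TTCNNNGAA, the class of site bound by STAT5, which carries growth hormone signals in liver, in capitals. It was the only such match in the 15 windows of 8 members, and 8.30% of all windows hold one. The letters TGTTTAC, a FOXA motif, were in 0 of the 15 windows and in 3.65% of all windows, and none of the 4 motif letters searched on both strands was in the 4 Esrrg windows.

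Esr1: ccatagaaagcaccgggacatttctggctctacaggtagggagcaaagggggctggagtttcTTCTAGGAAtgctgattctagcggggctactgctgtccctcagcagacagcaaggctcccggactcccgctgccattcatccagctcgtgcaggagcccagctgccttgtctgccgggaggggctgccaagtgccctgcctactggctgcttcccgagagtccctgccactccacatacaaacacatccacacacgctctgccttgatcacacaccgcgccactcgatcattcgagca

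Esr1 had 30.9 and 40.2 CPM in WT males, 33.6 and 35.1 CPM in NT-KO males, 59.1 and 41.5 CPM in WT females, and 49.98 and 42.4 CPM in NT-KO females. Every female library lay above every male library, by 41.5 against 40.2 CPM at the closest. The log2 fold change of females against males was 0.47 ± 0.15 (95% interval 0.12 to 0.82, FDR = 0.098), which did not pass, and over 16 alternatives the FDR ran from 0.0302 to 0.286 and passed in 2, with library size alone and with no filter on low counts. NT-KO differed from WT by -0.05 ± 0.22 in males (FDR = 0.959) and by -0.12 ± 0.22 in females (FDR = 1).

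Nr3c1 (ENSMUSG00000024431, chr18:39410545-39519421, minus strand, exon length 7684 bases) encodes the glucocorticoid receptor. It had 101 and 60.8 CPM in WT males, 58.2 and 80.8 CPM in NT-KO males, 51.7 and 57.8 CPM in WT females, and 59.1 and 73.0 CPM in NT-KO females. The highest value was in male WT replicate 1, the library with more erythroid RNA, and both female NT-KO libraries lay above both female WT libraries. The log2 difference was -0.22 ± 0.26 in males (FDR = 0.808), 0.18 without male WT replicate 1, 0.28 ± 0.26 in females (95% interval -0.33 to 0.88, FDR = 1) and -0.31 ± 0.19 between the sexes (95% interval -0.74 to 0.11, FDR = 0.319). Of its 15 listed targets 1 rose in females, beside 7.84% of all genes that passed: Zfp36, an mRNA decay factor, at 0.89 ± 0.22 (FDR = 0.0465). That call was lost in 6 of 16 alternatives, which left out 1 library other than male NT-KO replicate 1 and female WT replicate 2. Between genotypes 0 of 15 passed by any of the 3 tools in either sex. In males 2 had an unadjusted p under 0.05, beside 11.5% of all genes. They were G6pc, which encodes glucose-6-phosphatase, at 1.01 ± 0.37 and Mt2, a metallothionein, at -3.37 ± 1.46. In females 0 had an unadjusted p under 0.05. The medians were 0.09 in males, 0.02 in females and 0.15 between the sexes.

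The heat shock proteins and co-chaperones that hold steroid receptors ready for ligand were listed as 10 genes, all tested. In male NT-KO 8 of 10 were lower than in WT males, with a median of -0.65, and 6 had an unadjusted p under 0.05, beside 11.5% of all genes. None passed: Hspa8 differed by -1.10 ± 0.22 (FDR = 0.167) and Hsp90aa1 by -1.78 ± 0.37 (FDR = 0.177). The likelihood ratio test passed 3 and DESeq2 4, all lower in NT-KO. Hsp90aa1, an HSP90 gene, had 252 and 453 CPM in WT males, 76.8 and 128 CPM in NT-KO males, and 84.9 to 119 CPM in the female libraries. Male WT thus held the 2 highest values, and Hsp90aa1 fell in females against males within WT by 1.81 ± 0.37 (FDR = 0.0314), a call lost in 5 of 16 alternatives, without male WT replicate 2 or any 1 of the female libraries. That was 1 of 10 within WT, beside 6.44% of all genes. Over both genotypes 0 of 10 passed between the sexes, beside 7.84% of all genes. Hsp90aa1 differed there by -0.90 ± 0.25 (quasi-likelihood test, FDR = 0.0667). Within NT-KO 0 of 10 passed between the sexes, beside 1.86% of all genes, and Hsp90aa1 differed by 0.001 ± 0.36. In females 0 of 10 passed between genotypes by any of the 3 tools, 0 had an unadjusted p under 0.05, and the median was 0.06.

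The 19 coactivators and corepressors, which carry the receptors' signal to chromatin, were all tested, and 0 passed in any of the 7 comparisons. In males 0 and in females 0 had an unadjusted p under 0.05 between genotypes, the likelihood ratio test and DESeq2 passed 0 there, and between the sexes 2 were higher and 2 lower with an unadjusted p under 0.05, beside 26.9% of all genes. Their medians were 0.01 in males, 0.03 in females and -0.15 between the sexes, the last -0.02 on library size alone.

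Among the 14 tested of 16 genes that supply or clear ligands, 3 passed between the sexes over both genotypes, beside 7.84% of all genes. Cyp7b1, an oxysterol hydroxylase, fell in females by 3.74 ± 0.29 on the log2 scale (FDR = 0.000226), and Srd5a1, a steroid reductase, fell by 1.06 ± 0.18 (FDR = 0.0112). Serpina6, the plasma carrier of glucocorticoids, rose by 1.40 ± 0.24 (FDR = 0.0112). In females against males Srd5a1 differed by -1.71 ± 0.26 within WT (quasi-likelihood test, FDR = 0.0108). Within NT-KO it differed by -0.41 ± 0.25 (FDR = 0.724). Of the 14 genes only Cyp7b1 passed between the sexes within NT-KO, beside 1.86% of all genes. The Serpina6 call was lost without female NT-KO replicate 1 and that of Srd5a1 without female NT-KO replicate 2. Between genotypes 0 passed by any of the 3 tools in either sex. The smallest p-values were those of Hsd17b2 in males, at -0.43 ± 0.16, and of Srd5a1 in females, at 0.73 ± 0.25, with unadjusted p = 0.0301 and 0.0193.

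Among the 27 other nuclear receptors tested, Rxrg, retinoid X receptor gamma, rose in females with a log2 fold change of 1.12 ± 0.21 (FDR = 0.0164). Of all tested genes 7.84% passed in that comparison. Rxrg was at 2.02 and 2.45 CPM in WT males, 3.37 and 4.75 CPM in NT-KO males, and 5.12 to 8.81 CPM in the female libraries, with every female library above every male library. Its call was lost without male WT replicate 1, female WT replicate 2 or female NT-KO replicate 1. In male NT-KO against WT 20 of 27 were higher, with a median of 0.35, and 8 had an unadjusted p under 0.05, all higher, beside 11.5% of all genes. None passed, and Nr0b2, the small heterodimer partner induced by bile acids, differed by 1.63 ± 0.42 (FDR = 0.242) and passed with the likelihood ratio test and with DESeq2. In females 0 of 27 had an unadjusted p under 0.05, 0 passed by any of the 3 tools, and the median was 0.03. Of 15 other hepatocyte transcription factors 1 rose in females and 1 fell, beside 7.84% of all genes that passed. Cux2, a female-biased repressor, rose by 7.28 ± 0.41 (FDR = 4.36e-05), and Foxa3 fell by 1.66 ± 0.19 (FDR = 0.00147). Between genotypes 0 of these 15 passed by any of the 3 tools. In males 2 had an unadjusted p under 0.05, beside 11.5% of all genes, and in females 0 did.

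**Figure D4:**
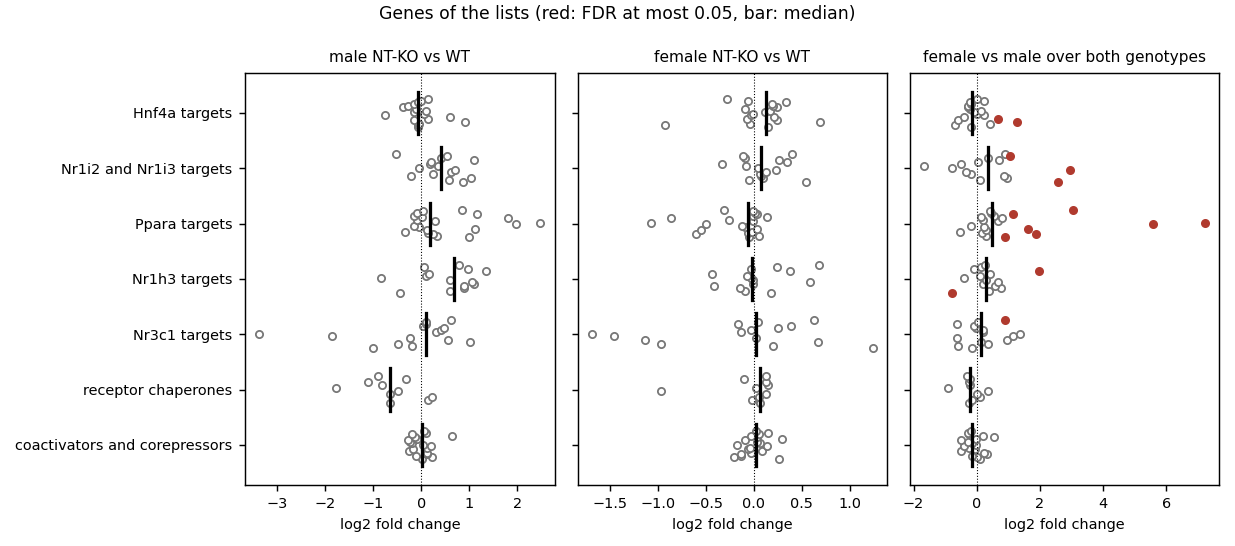
Log2 fold change of the tested genes of 7 lists in the 3 comparisons, 1 point a gene, red where the FDR is at most 0.05, with a black bar at each list's median and an x axis of its own for each panel. No gene is red between genotypes; the PPAR alpha targets hold 7 red points between the sexes, with Cyp4a14 at 7.23.

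The circadian list itself was tested in the same way. Of its 14 tested genes 3 passed between the sexes over both genotypes, beside 7.84% of all genes. Arntl fell in females by 1.70 ± 0.29 (FDR = 0.011) and Clock, its partner, by 0.90 ± 0.14 (FDR = 0.00879), while Per3, which Arntl and Clock switch on, rose by 0.82 ± 0.10 (FDR = 0.00184). Within WT 2 of the 14 rose in females and 3 fell, beside 6.44% of all genes. Within NT-KO 0 of 14 passed, beside 1.86% of all genes. Arntl overlapped between the sexes there, at 1.92 and 1.34 CPM in males and 1.52 and 0.673 CPM in females. The Arntl call was lost without female WT replicate 2. Between genotypes in males 0 passed and 7 had an unadjusted p under 0.05, beside 11.5% of all genes, Per3 at 0.61 ± 0.14 (FDR = 0.203) and Dbp at 0.96 ± 0.23 (FDR = 0.228) having the smallest. The likelihood ratio test passed 1 of these and DESeq2 3. In females 0 passed by any of the 3 tools and 0 had an unadjusted p under 0.05. The times of collection are not given in the sources used here, so sex, genotype and the state of the clock cannot be told apart in these libraries.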

How the data were processed

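Liver RNA was sequenced in 8 libraries made with an Illumina TruSeq RNA kit. The authors trimmed reads with cutadapt, aligned them to GRCm38 with STAR 2.6.1a (the version per the labels) and used featureCounts with Ensembl annotation for the gene counts. The deposited values are raw counts, with no normalization or filter. The strand and multi-mapping settings of the counting are not given in the sources used here. All 8 columns were used and 0 were left out.

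Gene IDs were matched to GENCODE M21 on GRCm38 for names, positions and exon lengths (49412 of 49671 matched). From the counts, CPM and RPKM were computed on TMM-scaled totals with edgeR 4.0.16 (R 4.3.3). Tests took the 13117 genes that reached 1 CPM in 2 or more libraries and were not annotated as rRNA, miRNA or mitochondrial. The 8 libraries entered 1 quasi-likelihood fit of the 4 group means, tested two-sided, with Benjamini-Hochberg adjustment over all tested genes. The standard error was taken from the log2 fold change and its F statistic (the size over the root of F), and 95% intervals use the model's degrees of freedom. An exact permutation test could not go below p = 0.333 with 2 libraries against 2, or 0.0286 with 4 against 4 before adjustment over genes, and none was used. The totals give a precision of about 0.02 CPM a count and the floor was 3 counts, which cover counting error only. The common biological coefficient of variation was 0.217. Scripts were tested on simulated data.

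Other settings tried were DESeq2 1.42.0, the likelihood ratio test of edgeR, scaling by RLE or by library size only, filtering with filterByExpr or not beyond 1 count, a replicate block, robust dispersion, the libraries of 1 sex alone, a minimum log2 fold change of 1 and each library left out in turn. The single library that then remains in a group is assumed to vary like the other groups. Replicate numbers are shared between groups in the labels, and the correlation of same-numbered libraries' deviations from their group means ran from -0.181 to 0.209, so the numbers were not taken to pair libraries.

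The 9 receptors, the gene lists and the tests were chosen with earlier results of these data known. Named genes were the 9 receptors, of each list and comparison at most 4 genes with the smallest FDR among those that passed or, where none passed, at most 2 with the smallest p, the 2 genes nearest to each receptor, Lbr, Xist and 4 Y-linked genes. Tomm40l was named after its values were seen. The results of 1 gene of the lists are not reported here. Of the Hnf4a target list 1 symbol was not matched. RefSeq start windows (GRCm38.p6) were searched for motifs on both strands. For the receptors the search left out chr18, where Nr3c1 lies, so it covered 8 of 9 and does not tell whether Nr3c1 has a window.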

Additional observations from a re-analysis of the deposited data

How the results depend on the processing

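Esrrg was higher in females under all 16 alternatives over both genotypes (log2 fold change 2.81 to 3.23) and within WT (3.92 to 4.75). The number of the 9 receptors called was 0 for genotype in males, over both sexes and for their difference. The likelihood ratio test gave 1, 1 and 1, DESeq2 1, 1 and 1, and no filter beyond 1 count 2, 1 and 2. Over both genotypes 1 receptor was called between the sexes, against 2 with the likelihood ratio test, 3 with DESeq2, 4 with library size only, 3 with no filter, and 1 to 2 with each library left out. Within WT 1 was called, against 2, 2, 3 and 2 in that order, and 1 to 2 with each library left out. In NT-KO 0 were called, against 1, 1, 1 and 1. The second receptor called without male NT-KO replicate 1 or 2 was Nr1i3. The cause of these changes was not tested. With the replicate block 1 receptor was called between the sexes and 0 between genotypes, and 946 genes in place of 1028 between the sexes. The block changed no call of a receptor.

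Signs turned with library size only for Ppara between the sexes (0.085) and for Esr1 in NT-KO against WT males (0.018). That scaling moves the median of all genes between the sexes from -0.01 to 0.12. The calls between the sexes move from 540 higher and 488 lower to 1171 and 347. In NT-KO against WT males it moves the median of all genes from 0.01 to 0.08. With each library left out, log2 fold changes ran from -0.13 to 0.27 for Nr1i2 in females, from -0.035 to 0.62 for Nr1i3 over both sexes, from -0.095 to 1.20 for Nr1i3 between the sexes in NT-KO, from -1.03 to 0.26 for Ppara in females and from -0.44 to 0.21 between the sexes. They ran from -0.079 to 0.31 for Rxra in males, -0.048 to 0.20 in females and -0.055 to 0.14 between the sexes, from -0.23 to 0.16 for Esr1 in males and -0.36 to 0.16 in females, and from -0.53 to 0.18 for Nr3c1 in males.

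Over all genes the calls in males were 2, against 254 with the likelihood ratio test, 308 with DESeq2, 917 with no filter and 6 with filterByExpr or robust dispersion. In females they were 1, against 11, 5 and 194 in the first 3 of these. Over both sexes they were 2, against 51, 62 and 445, and for the difference between the sexes 2, against 46, 62 and 552. Between the sexes over both genotypes they were 1028, against 1757, 1849 and 2722, in WT 845, against 1707, 1802 and 2664, and in NT-KO 244, against 467, 480 and 976. Leaving out each library gave 2 to 27 in males (27 without male WT replicate 1), 0 in females, 0 to 9 over both sexes, 1 to 7 for the difference, 464 to 1205 between the sexes, 180 to 1149 in WT and 112 to 234 in NT-KO. With 2 libraries a group and 4 residual degrees of freedom, differences of the size of the intervals given could not be told from 0.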

Other observations

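For each receptor the 2 tested genes whose log2 CPM, less the mean of the sex, followed it most closely over the 8 libraries were named by rule, with Pearson r from 0.964 to 0.988. They are the highest of 13117 genes by choice, and they share libraries, depth and the state of the clock with the receptor. They were Rce1 and Pabpc4 for Hnf4a, Rtl5 and Dclre1b for Nr1i2, Ermard and N4bp2os for Nr1i3, Zfp758 and Gmfb for Ppara, and Armc9 and Ddx19b for Nr1h3. They were Cdc42bpb and Exoc7 for Rxra, Stac3 and Atp5j for Esr1, Cdc42bpg and Lrig3 for Esrrg, and Ncbp3 and Nepro for Nr3c1. No receptor was among the 2 genes nearest to another.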
